A study of Homo sapiens with 6 samples.

Results

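The genes described here encode the core proteins of the tight junction. They are the claudins CLDN1, CLDN2, CLDN3, CLDN4, CLDN7 and CLDN12, the membrane proteins OCLN and F11R, and the scaffold protein TJP1. They were chosen by gene symbol, 9 of the 58735 genes listed in the deposited tables, and all 9 had enough counts to be tested. RNA was sequenced from A549 cells, an established line of human lung adenocarcinoma cells, in 3 libraries titled Vector, whose genotype and treatment are given as WT, and 3 titled OE_GPX3, whose genotype and treatment are given as OE, for overexpression. GPX3 encodes a secreted glutathione peroxidase. No source used here gives the promoter driving GPX3, the time after transfer, or whether the cells were a pool or a clone. Nothing says that the replicates were grown separately, so each p-value reflects only how far these samples spread, which may be technical.

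Tight junctions seal the space between neighbouring epithelial cells near their apical surface. Claudins form the paracellular strands: some, such as CLDN1, tighten the barrier, and CLDN2 forms a channel for small cations and water. Occludin (OCLN) and the immunoglobulin-like adhesion molecule F11R, also called JAM-A, are further membrane proteins of the junction, and TJP1, a zonula occludens protein, ties the strands to actin. A claudin pattern dominated by the channel former is typical of leaky epithelia, and in alveolar epithelium CLDN18 is a leading claudin.

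Total counts ran from 15831693 to 18751815 per library. GPX3 itself had 638, 658 and 648 counts in Vector and 23372, 17470 and 20984 in OE_GPX3. The libraries did not separate cleanly by group over all 14458 tested genes: across genes, log2 CPM (counts scaled to a library total of 1e6) of OE_GPX3 replicates 1 and 2 correlated at 0.986, and Vector replicate 3 correlated with OE_GPX3 replicate 2 at 0.989. Of 6 epithelial markers all 6 were tested, and KRT8, a keratin, had 13329 CPM in Vector. Of 8 alveolar type 2 markers 3 were tested. ABCA3 averaged 130 CPM in Vector and 154 in OE_GPX3, SFTPD 5.67 and 7.16, and LAMP3 2.93 and 2.39. The surfactant gene SFTPC was not tested and had 9 counts over all 6 libraries. None of 6 endothelial markers passed the filter, whereas 1 of 6 fibroblast markers (COL1A1) and 1 of 6 leukocyte markers (CD14) did.

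With GPX3 overexpressed, no tight junction gene passed the test across all genes, but the members lay on both sides of 0. CLDN2 was the most abundant of the 9 and came closest to a call, at 1.33-fold higher. TJP1 was 1.27-fold lower and OCLN 1.28-fold lower, with confidence intervals given below. Over all tested genes edgeR's quasi-likelihood test called 0.263% at a Benjamini-Hochberg adjusted p under 0.05, with 0 of the 9 members among them. At an unadjusted p under 0.05 there were 2 members, CLDN2 and TJP1, against 14.6% of all tested genes, and DESeq2 called 1, CLDN2, against 0.802%. With the replicate number as a block 1 member (CLDN2) was called against 1.6% of genes, with no filter on low counts 1 (CLDN2) against 0.481%, and with a GC correction 0 against 0.0277%.

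The start regions of these 2 members, which lay in opposite directions, are shown for both CLDN2 starts and for the outermost of several TJP1 starts. The windows shown differ in base composition and in the motifs found. RefSeq (GRCh38.p14) lists 2 starts for CLDN2, and the 250 bases before each are at chrX:106899914-106900163 and chrX:106918110-106918359, both on the plus strand. The second lies within the CLDN2 gene, between exons. The 250 bases before the outermost TJP1 start are at chr15:29969050-29969299, on the minus strand. Capitals mark matches to the GC box (GGGCGG) or to the E-box bound by repressors of the SNAI and ZEB families (CAGGTG), on either strand, and TATAAA was searched too.
CLDN2, first start: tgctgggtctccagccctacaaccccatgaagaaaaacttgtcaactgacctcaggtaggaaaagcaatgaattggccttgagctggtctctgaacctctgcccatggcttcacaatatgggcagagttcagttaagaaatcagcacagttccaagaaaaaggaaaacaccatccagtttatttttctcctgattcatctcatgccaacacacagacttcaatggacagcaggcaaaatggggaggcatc
CLDN2, second start: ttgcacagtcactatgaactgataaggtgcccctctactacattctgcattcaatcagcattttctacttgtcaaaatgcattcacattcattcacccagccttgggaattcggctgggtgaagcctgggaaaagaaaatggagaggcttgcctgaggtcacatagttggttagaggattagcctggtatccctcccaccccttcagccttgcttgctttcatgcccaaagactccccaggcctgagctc
TJP1, outermost start: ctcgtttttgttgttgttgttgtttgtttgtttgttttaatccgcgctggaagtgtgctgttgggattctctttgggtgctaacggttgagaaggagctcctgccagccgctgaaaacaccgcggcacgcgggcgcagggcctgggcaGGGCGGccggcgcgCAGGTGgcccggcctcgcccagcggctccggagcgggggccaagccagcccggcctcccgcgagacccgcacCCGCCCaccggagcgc

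Both CLDN2 windows held no capitals, that is no match to either motif, and no TATAAA. Their GC content was 46.0% and 48.8%, below the median of 58.0% over the 35116 windows of the same length in the table. The TJP1 window shown, at 66.8% GC, held 2 GC boxes and 1 E-box, and none of its matches overlapped. RefSeq lists further TJP1 starts, whose windows had 70.4%, 64.8% and 34.8% GC. None of these held the E-box, and the window at 34.8% held no GC box either. RefSeq windows were found for 8 of the 9 members. A GC box was present in windows of 6 of those 8, that is in 8 of their 14 windows, against 42.6% of all windows. The E-box was in windows of 3 of the 8 (CLDN7, OCLN and TJP1), that is in 4 of the 14 windows, against 17.5%. TATAAA was in 0 of the 14 windows, against 10.7%. Several members have more than 1 window, so only the counts of windows are in the same unit as the shares of all windows. A match is a description of letters only.

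Levels were compared between genes in FPKM, the authors' length-scaled and depth-scaled values, which allow for gene length. The claudin channel former led by a wide margin. CLDN2 stood at 88.5, 86.0 and 92.3 FPKM in the Vector libraries and at 117, 122 and 118 FPKM in the OE_GPX3 libraries. All 3 OE_GPX3 libraries were above all 3 Vector libraries. In Vector the mean CLDN2 level, 88.9 ± 3.18 FPKM (SD, n = 3), was 3.91 times that of the next member.

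That next member was CLDN1, the barrier claudin, at 22.7 ± 2.10 FPKM (SD, n = 3) in Vector and 19.8 ± 1.90 in OE_GPX3 (SD, n = 3). F11R followed at 17.4 ± 0.754 FPKM in Vector against 19.2 ± 1.00 in OE_GPX3 (SD, n = 3 each). The Vector libraries of these 2 genes did not overlap, but their OE_GPX3 libraries did. In OE_GPX3, then, CLDN1 and F11R could not be ordered beyond their spread. Of the F11R exon bases 36.6% are shared with another gene on the same strand. How reads there were counted is not stated, so the order of these 2 genes in Vector is uncertain too.

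A middle tier held CLDN3, a barrier claudin, and TJP1. CLDN3 was at 7.29 ± 0.661 FPKM in Vector against 8.11 ± 1.28 in OE_GPX3 (SD, n = 3 each), and TJP1 at 6.64 ± 1.12 and 5.30 ± 0.439 FPKM (SD, n = 3 each). These genes overlapped in Vector and not in OE_GPX3. Below them CLDN12, a claudin without the usual PDZ-binding tail, and CLDN4, which tightens epithelia against sodium, overlapped in both groups. CLDN12 stood at 2.92 ± 0.383 FPKM in Vector against 2.64 ± 0.211 in OE_GPX3 (SD, n = 3 each). CLDN4 was at 2.66 ± 0.646 and 3.06 ± 0.299 FPKM (SD, n = 3 each).

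CLDN7, found along the lateral membrane of many epithelia, and OCLN were lowest. CLDN7 had 1.14 ± 0.226 FPKM in Vector against 1.31 ± 0.280 in OE_GPX3 (SD, n = 3 each). OCLN had 1.11 ± 0.150 and 0.877 ± 0.0613 FPKM (SD, n = 3 each). The Vector libraries of this pair overlapped, while in OE_GPX3 all 3 CLDN7 libraries were above all 3 OCLN libraries.

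**Figure D1:**
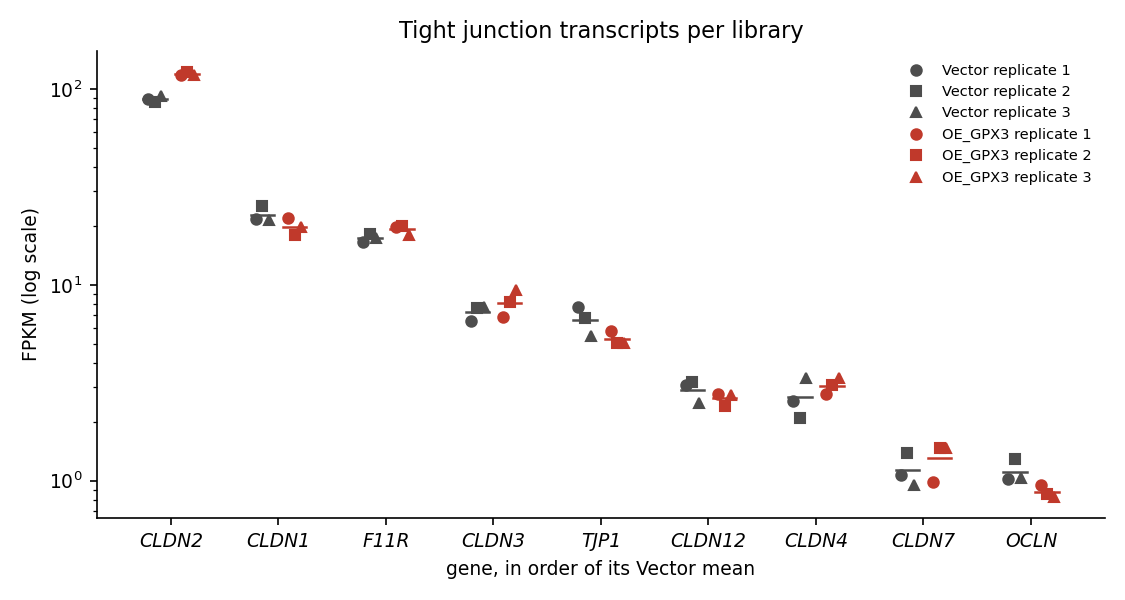
FPKM (log scale) of each tight junction gene in each library, with genes ordered by their Vector mean. Circles, squares and triangles are replicates 1, 2 and 3, grey for Vector and red for OE_GPX3, and bars are group means. CLDN2 stands above all others, near 88.9 FPKM in Vector and 119 in OE_GPX3, and OCLN and CLDN7 lie near 1.

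How the claudins divide the total was then compared within each library, where scaling between libraries drops out of a ratio. Differences between libraries that go with GC content, described below, do not drop out where the genes compared differ in GC, as CLDN2 and CLDN1 do. These ratios were chosen after the values were seen and carry no test. CLDN2 made up 66.0%, 63.4% and 66.7% of the summed FPKM of all claudins in Vector and 71.7%, 74.5% and 70.4% in OE_GPX3, with no overlap. The ratio of CLDN2 to CLDN1, both in FPKM, was 4.07, 3.42 and 4.33 in the Vector libraries against 5.38, 6.77 and 6.005 in OE_GPX3. The mean ratio in OE_GPX3 was 1.54 times that in Vector, and all 3 OE_GPX3 libraries were above the Vector libraries.

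The summed FPKM of all claudins was 136 ± 2.14 in Vector against 165 ± 2.35 in OE_GPX3 (SD, n = 3 each). Without CLDN2 the sums overlapped, at 47.1 ± 2.21 and 45.9 ± 3.94 FPKM (SD, n = 3 each). The higher claudin sum in OE_GPX3 was therefore carried by CLDN2 in these libraries. Against F11R, a member of another family, the CLDN2 ratio was 5.13 ± 0.337 in Vector against 6.21 ± 0.299 in OE_GPX3 (SD, n = 3 each), again without overlap. The level of F11R is uncertain because of its shared exons, and so is the size of this ratio.

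**Figure D2:**
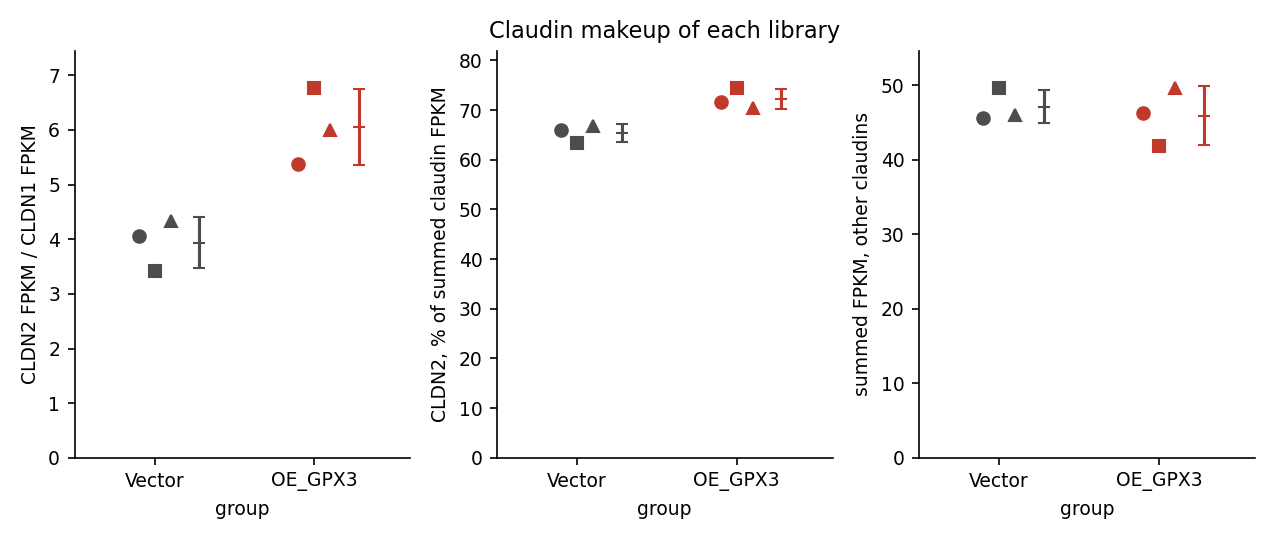
Ratio of CLDN2 to CLDN1 FPKM, percent of summed claudin FPKM from CLDN2, and summed FPKM of claudins other than CLDN2, per library (symbols are replicates 1, 2 and 3, bars mean ± SD, n = 3). The first 2 measures do not overlap between groups, while the sum without CLDN2 overlaps, at 47.1 and 45.9 FPKM.

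Whether each member differed with GPX3 overexpression was tested by edgeR on the counts. CLDN2 (ENSG00000165376, chromosome X, 106900164 to 106930861, plus strand, hg38) had 5436, 5767 and 5178 counts in Vector and 7186, 7035 and 6177 in OE_GPX3. Its mean CPM was 307 ± 9.96 in Vector against 406 ± 7.79 in OE_GPX3 (SD, n = 3 each). The log2 fold change was 0.41 (SE 0.10), with 95% confidence limits of 0.20 and 0.61 (edgeR adjusted p = 0.0604, unadjusted p = 0.000229). It ranked 53 by p among the tested genes, and CPM did not overlap between groups in the higher direction, which held for 8.62% of all tested genes. The call depended on the processing: CLDN2 passed with DESeq2 (log2 fold change 0.42, adjusted p = 0.00172) and with no filter on low counts (edgeR adjusted p = 0.0394). It also passed without OE_GPX3 replicate 1 (edgeR adjusted p = 0.00673), in a fit that called 4.47% of genes. Over 14 alternatives its adjusted p ranged from 0.00172 to 0.619. In FPKM, limma gave a difference of 0.42 on the log2(FPKM + 1) scale with an interval of 0.23 to 0.61 (adjusted p = 0.214), where 0.037% of genes were called. RIPPLY1, on the other strand, shares 10% of the CLDN2 exon bases and had at most 1 count in a library, and MORC4 spans the locus without sharing exon bases.

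CLDN1 (ENSG00000163347, chromosome 3, 190305701 to 190322475, minus strand) had 1436, 1813 and 1285 counts in Vector and 1435, 1116 and 1105 in OE_GPX3. In CPM the Vector libraries were at 81.0, 93.2 and 78.6 and the OE_GPX3 libraries at 80.5, 65.9 and 71.7. OE_GPX3 replicate 1 lay among the Vector libraries, so the groups overlapped. The log2 fold change was -0.21 (interval -0.44 to 0.01, edgeR adjusted p = 0.364). It was -0.13 without Vector replicate 2 and -0.14 without OE_GPX3 replicate 2.

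CLDN3 and CLDN4 are neighbours on chromosome 7, on opposite strands with 29271 bases between them. CLDN3 (ENSG00000165215, 73768997 to 73770270) is annotated as a single exon. It had 150, 191 and 162 counts in Vector and 156, 176 and 183 in OE_GPX3, with a log2 fold change of 0.13 (interval -0.20 to 0.47, edgeR adjusted p = 0.722). CLDN4 (ENSG00000189143, 73799542 to 73832693) had 215, 193 and 260 counts in Vector and 233, 244 and 242 in OE_GPX3. Its log2 fold change was 0.19 (interval -0.14 to 0.51, edgeR adjusted p = 0.592). Single libraries moved both values: CLDN4 had 0.039 without Vector replicate 2 and 0.40 without Vector replicate 3, and CLDN3 had 0.037 without OE_GPX3 replicate 3, 0.065 without Vector replicate 1 and 0.24 without OE_GPX3 replicate 1. Both genes overlapped between groups, and the ratio of CLDN4 to CLDN3 FPKM was 0.366 ± 0.0829 in Vector against 0.380 ± 0.0234 in OE_GPX3 (SD, n = 3 each). The neighbours thus kept a ratio that differed by less than its spread.

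CLDN7 (ENSG00000181885, chromosome 17, 7259903 to 7263983) was the member with the fewest counts, 48, 68 and 39 in Vector and 44, 62 and 56 in OE_GPX3. Its log2 fold change of 0.17 had the widest interval of the 9, -0.33 to 0.68 (edgeR adjusted p = 0.771). With a library left out it ran from 0.075, without Vector replicate 3, to 0.35, without Vector replicate 2, and it moved by over 1.5 times with any 1 of the 3 OE_GPX3 libraries left out, to between 0.086 and 0.34. CLDN12 (ENSG00000157224, chromosome 7, 90383721 to 90513402) had 376, 422 and 275 counts in Vector and 337, 273 and 283 in OE_GPX3. Its log2 fold change was -0.16 (interval -0.45 to 0.12, edgeR adjusted p = 0.594), and it was -0.088 without OE_GPX3 replicate 2, -0.097 without Vector replicate 2 and -0.26 without Vector replicate 3. Of the CLDN12 exon bases 16.3% are shared on the same strand with other genes, GTPBP10 and CDK14 among them, and 10.8% of those of CLDN7 with AC003688.1, listed at 0 counts. On simulated counts with these library sizes and group sizes 13 of 67 genes made 1.25-fold different were called. Of those made 1.5-fold different 43 of 67 were called, and of those made 2-fold different 64 of 66. The genes made different were drawn only from the better expressed genes, so these rates are not averages over all tested genes. The rates were not split by level either. They therefore give no rate for a gene as low as CLDN7, with means of 2.86 CPM in Vector and 3.25 CPM in OE_GPX3.

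Among the membrane proteins outside the claudins, OCLN and F11R lay in opposite directions. OCLN (ENSG00000197822, chromosome 5, 69492292 to 69558104) was at 7.00, 8.79 and 7.03 CPM in Vector and 6.45, 5.78 and 5.58 CPM in OE_GPX3. All 3 OE_GPX3 libraries were below all 3 Vector libraries, as for 9.9% of all tested genes. The log2 fold change was -0.36 with a standard error of 0.18 (interval -0.72 to 0.01, edgeR adjusted p = 0.353), and it was -0.24 without Vector replicate 2. Its annotated pseudogene OCLNP1 had 0 counts in all 6 libraries.

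F11R (ENSG00000158769, chromosome 1, 160995211 to 161021348) was at 85.7, 92.9 and 88.2 CPM in Vector and 100.6, 100.4 and 91.0 CPM in OE_GPX3. OE_GPX3 replicate 3 lay below Vector replicate 2, so the groups overlapped. The log2 fold change was 0.13 (interval -0.08 to 0.34, edgeR adjusted p = 0.567). Of its exon bases, 36.6% are shared on the same strand with AL591806.3, which is listed at 0 counts in all 6 libraries. No source used here states how reads in shared exons were counted, so the level of F11R is uncertain.

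TJP1 (ENSG00000104067, chromosome 15, 29699367 to 29968865, minus strand), the scaffold, had 1563, 1495 and 1014 counts in Vector and 1175, 964 and 869 in OE_GPX3. In CPM it was at 88.2, 76.9 and 62.0 in Vector and at 65.9, 56.9 and 56.4 in OE_GPX3. Vector replicate 3 lay below OE_GPX3 replicate 1, and the other Vector libraries were above all OE_GPX3 libraries. The log2 fold change was -0.34 with a standard error of 0.12 (interval -0.58 to -0.10, edgeR adjusted p = 0.191, unadjusted p = 0.00653). Without Vector replicate 1 it was -0.22. Without OE_GPX3 replicate 1 it was -0.42 and was called (edgeR adjusted p = 0.0186), in a fit that called 4.47% of genes, and over 14 alternatives the adjusted p ranged from 0.0186 to 0.696.

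**Figure D3:**
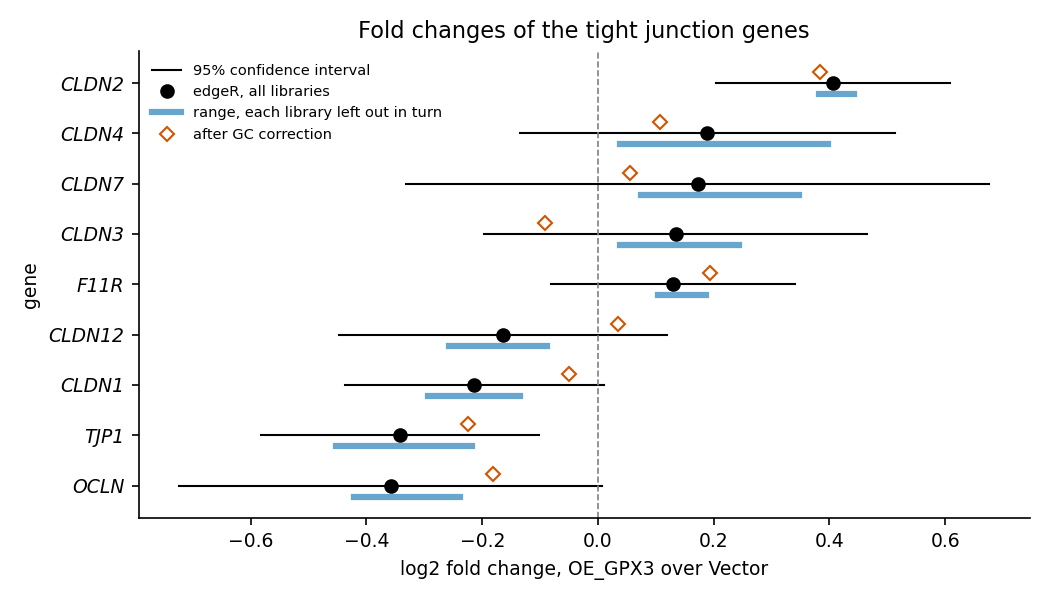
log2 fold change of OE_GPX3 over Vector for each member (black points) with its 95% confidence interval, the range when each library is left out in turn (blue bars) and the value after a correction for GC content (open diamonds). The intervals of CLDN2 (0.20 to 0.61) and TJP1 (-0.58 to -0.10) do not reach 0, and CLDN3 and CLDN12 change sign after the correction.

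The sign of the members' fold changes was ordered as the base composition of their transcripts. The 4 members with a fold change below 0 were the 4 with the lowest GC content of the longest transcript: CLDN12 at 38.1%, OCLN at 39.9%, CLDN1 at 41.5% and TJP1 at 44.8%. The 5 above 0 were F11R at 47.6%, CLDN2 at 52.6%, CLDN4 at 57.5%, CLDN7 at 59.6% and CLDN3 at 69.2%. The start windows shown above were ordered the other way: the outermost TJP1 window was more GC-rich than both CLDN2 windows, while the TJP1 transcript was less GC-rich. Another TJP1 window, at 34.8% GC, was less GC-rich than both CLDN2 windows.

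The medians of all tested genes also were higher at higher GC, with a change of sign at 50%, and F11R, at 0.13, lay on the other side of 0 from the median of its own range. The median log2 fold change was -0.19 over 2121 genes under 40% GC, -0.10 over 5510 genes from 40% to 50%, 0.08 over 4630 genes from 50% to 60% and 0.16 over 2189 genes from 60%. With each library corrected for GC, an alternative chosen once the data had been seen, CLDN2 had 0.38 (edgeR adjusted p = 0.113), TJP1 -0.22, OCLN -0.18 and F11R 0.19. CLDN1 had -0.05, CLDN4 0.11 and CLDN7 0.06, and the signs turned for CLDN3, to -0.092, and CLDN12, to 0.034. CLDN2 kept most of its difference under the correction. At 52.6% GC it lies near the change of sign at 50%, where the correction has little to remove, so this does not set it apart. CLDN1, CLDN7 and CLDN12 were close to 0.

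**Figure D4:**
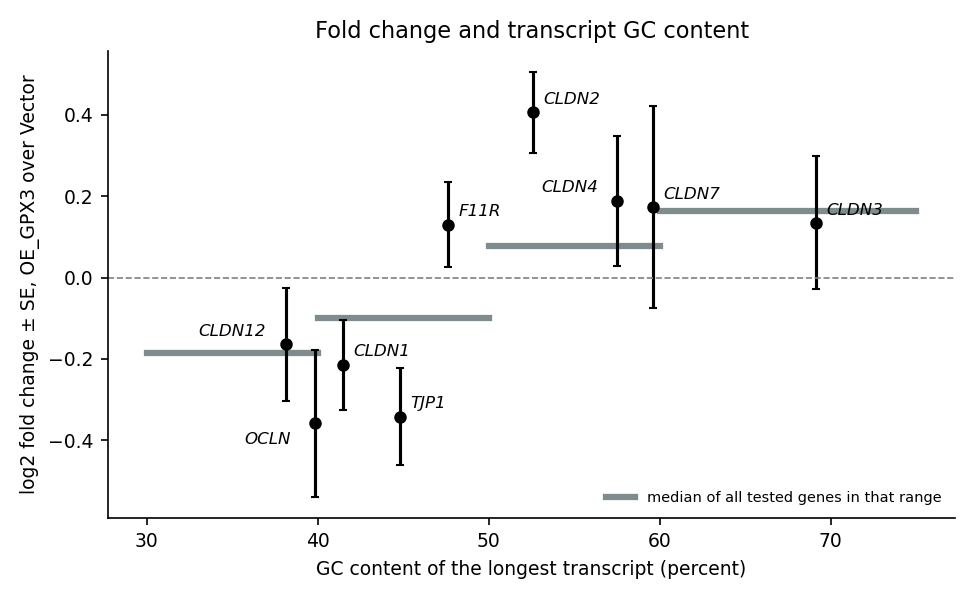
log2 fold change ± SE of each member against the GC content of its longest transcript, with the median of all tested genes in 4 GC ranges (grey bars, the outer ranges not drawn to their full extent). The 4 members with the lowest GC lie below 0 and the other 5 above, and the medians of all genes run from -0.19 to 0.16 and cross 0 at 50% GC, so that F11R lies on the other side of 0 from the median of its range.

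The other genes of the junction were taken from 6 lists, and edgeR called 0 in each of them. Among 18 further claudins, 2 passed the filter on low counts. CLDN15, a channel-forming claudin, had 11.4 ± 0.675 CPM in Vector against 12.3 ± 2.59 in OE_GPX3, and CLDN23 had 13.8 ± 1.23 against 13.8 ± 2.60 CPM (SD, n = 3 each). CLDN18, the alveolar claudin, had 3 counts over all 6 libraries and CLDN5, the endothelial claudin, had 7. For 7 of the 18 no count was seen in any library, which allows up to 3 counts in each, or 0.189 CPM in the shallowest, for counting error only. CLDN22 is 1 of those 7, and all of its exon bases are shared with WWC2 on the other strand.

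Of 14 other membrane proteins of the junction 9 were tested, 5 below 0 and 4 above, and 0 were called by edgeR or DESeq2, with 2 at an unadjusted p under 0.05, against 14.6% of all tested genes. LSR, the tricellular junction protein angulin, was the most abundant named member with 135 ± 12.9 CPM in Vector against 159 ± 21.9 in OE_GPX3 (SD, n = 3 each), and its log2 fold change was 0.23 (edgeR adjusted p = 0.324). The polarity protein CRB3 had 0.16, tricellulin (MARVELD2), a relative of OCLN, had -0.17 and the endothelial adhesion gene ESAM had -0.78 on mean levels of 1.71 and 0.994 CPM. The list median was -0.05 against -0.02 for all tested genes.

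Partners of TJP1 in the plaque and the polarity complexes were tested for 22 of 24 genes, 12 below 0 and 10 above. Of these 0 were called by edgeR or DESeq2, and 3 (PARD3, PATJ and PARD6B) were at an unadjusted p under 0.05, a share near the 14.6% of all tested genes. PATJ, a scaffold of the Crumbs complex, had 29.6 ± 2.17 CPM in Vector against 23.6 ± 1.80 in OE_GPX3 (SD, n = 3 each), with a fitted log2 fold change of -0.33 (edgeR adjusted p = 0.234). PARD6B, of the Par polarity complex, had -0.50 (edgeR adjusted p = 0.290). TJP3, a paralog of TJP1, lay the other way at 0.23 (edgeR adjusted p = 0.376), at 47.4 ± 7.97 against 55.5 ± 3.74 CPM (SD, n = 3 each), and the polarity kinase PRKCZ had 0.22.

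Regulators of junctional actin, traffic and turnover were tested for 23 of 25 genes, with 0 called by edgeR or DESeq2 and 5 at an unadjusted p under 0.05, against 14.6% of all tested genes. CAV1, a coat protein of the caveolae that can take up occludin, had 209 ± 16.5 CPM in Vector against 167 ± 5.41 in OE_GPX3 (SD, n = 3 each), with a fitted log2 fold change of -0.32 (edgeR adjusted p = 0.151). Without OE_GPX3 replicate 1 its edgeR adjusted p was 0.0375, in a fit that called 4.47% of genes. VAPA, an occludin-binding membrane protein, had -0.30. The nonmuscle myosin heavy chains MYH9 and MYH14 had 0.22 and 0.20. CDC42 had 39 counts over all 6 libraries with 57.1% of its exon bases shared with AL031281.2 on the same strand, so its level is likewise uncertain and is not read as an absence.

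Transcription factors known to act on epithelial junction genes were tested for 19 of 24, with 0 called by edgeR, 1 (KLF4) by DESeq2, against 0.802% of all tested genes, and 3 at an unadjusted p under 0.05, a share near the 14.6% of all tested genes. KLF4 was at 27.9, 37.2 and 25.5 CPM in Vector and 22.6, 16.0 and 21.6 CPM in OE_GPX3, without overlap, as for 9.9% of all tested genes in the lower direction. Its log2 fold change was -0.59 (edgeR adjusted p = 0.0607, 0.000555 without OE_GPX3 replicate 1, and 0.672 without Vector replicate 2). The fit without OE_GPX3 replicate 1 called 4.47% of genes. HNF4A had 50.7 ± 0.118 CPM in Vector against 64.2 ± 7.54 in OE_GPX3 (SD, n = 3 each), with a fitted log2 fold change of 0.34 (edgeR adjusted p = 0.169), and SP1, which binds the GC box, had -0.21.

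Adherens junction and desmosome genes were tested for 19 of 20, 12 below 0 and 7 above, with 0 called by edgeR or DESeq2 and 3 at an unadjusted p under 0.05, near the 14.6% of all tested genes. NECTIN1 and NECTIN2, adhesion proteins of the adherens junction, had 0.39 and 0.33 (edgeR adjusted p = 0.166 and 0.158), and their libraries did not overlap between groups. Over the list, 3 of the 19 did not overlap in either direction, a share near the 18.5% of all tested genes. The desmosomal cadherin DSC2 had -0.54 (edgeR adjusted p = 0.201) and CDH3, at a low level and with overlapping groups, had -0.82, which was -0.24 without Vector replicate 3 and -1.22 without Vector replicate 2. Of the 6 epithelial markers, all above 0, KRT19 had 0.46, KRT8 0.36 and KRT18 0.32 (edgeR adjusted p = 0.0541, 0.159 and 0.201), without overlap between groups. Over all tested genes 8.62% did not overlap in that direction. DESeq2 called 1 of the 6 markers, against 0.802% of all tested genes. EPCAM had 0.15 and KRT7 and CDH1 each had 0.06, with overlap. The summed FPKM of the 6 epithelial markers ran from 5282 to 5817 in Vector and from 5792 to 7837 in OE_GPX3, and their part in the result for CLDN2 was not tested.

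**Figure D5:**
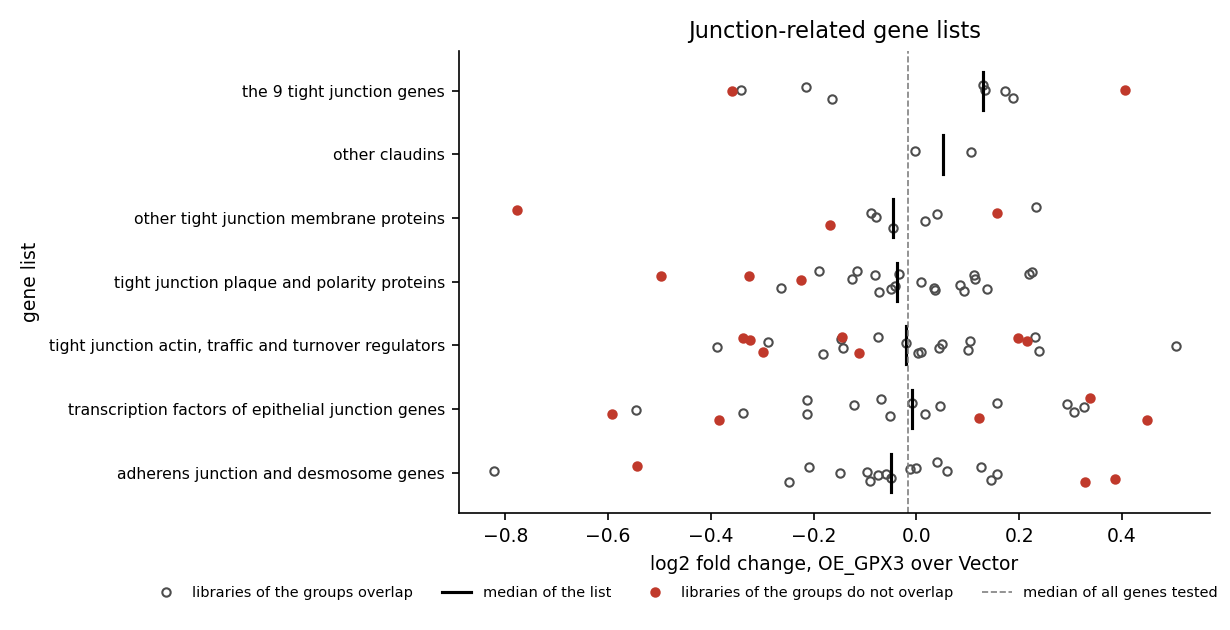
log2 fold change of OE_GPX3 over Vector for every tested gene of each list. Filled red points are genes whose libraries do not overlap between groups, black bars are list medians and the dashed line is the median of all tested genes, -0.02. List medians other than that of the 9 tight junction genes lie between -0.05 and 0.05.

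How the members varied together was described by Pearson's r of log2 CPM over the 6 libraries, which share group, depth and GC differences. The most alike pair was CLDN1 and OCLN at 0.92 (Spearman's rho 0.77), and within groups, after removing group means, r was 0.86. The least alike pair was CLDN2 and OCLN, at -0.86 (rho -0.77), and within groups at -0.68. Among 9978 other protein-coding genes averaging 5 CPM or more, the gene most like CLDN2 was APMAP (r = 0.999, n = 6), a membrane-anchored enzyme-like protein, with a log2 fold change of 0.23. For TJP1 it was TAF1, a subunit of the general transcription factor TFIID (r = 0.996, log2 fold change -0.36), and for CLDN1 it was RCAN1, a calcineurin inhibitor (r = 0.996, log2 fold change -0.23). For CLDN12 it was the glutathione reductase GSR (r = 0.998, log2 fold change -0.08) and for OCLN the apoptosis protease CASP8 (r = 0.987, log2 fold change -0.11). PKMYT1, FOXO4, C8orf33 and MPC2 were most like CLDN3, CLDN4, CLDN7 and F11R (r = 0.995, 0.989, 0.981 and 0.990). With 6 libraries and so many genes, such values are a description of these libraries.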

How the data were processed

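RNA of 3 Vector and 3 OE_GPX3 libraries was measured, with each library placed in its group by its title. The authors deposited whole-number counts per gene, which sum to a different total in each library, and the submitters' processing notes name hg38. No source used here gives the aligner, the counter or the use of strand. The labels' protocol describes a small RNA library. The FPKM the authors deposited equal the counts per gene length and per a constant that differs from the total count by -4.52% to 4.90%. All 58735 genes have the positions of GENCODE release 29. Genes were filtered by filterByExpr of edgeR (counts of at least 10, totals of at least 15), scaled by TMM, and tested with edgeR 4.0.16 (quasi-likelihood, robust, two-sided, Benjamini-Hochberg over 14458 genes, adjusted p under 0.05). CPM are counts per 1e6, scaled by TMM. FPKM of the 10814 genes averaging 1 or more were tested on the log2(FPKM + 1) scale with the trend option of limma 3.58.1. OCLN lay under that minimum. DESeq2 1.42.0, other scalings, filters, a replicate block and left-out libraries were tried, as was a GC correction (per-library spline of log2 CPM deviations on GC of the longest GENCODE transcript, used as offsets), added after the data were seen. On simulated counts 13 of 133 calls were false. The labels do not say whether the same replicate number pairs libraries. Deviations from group means correlated at 0.19, 0.01 and 0.11 for the same number, and at -0.15 to 0.05 for different numbers. Whether libraries were paired was thus not settled. Members and lists were chosen with earlier results of these data known. Named genes were GPX3, the 9 members, the called genes and the 2 smallest p in each direction of each list, overlapping genes, and the gene most like each member. PARD3, CLDN5, CLDN18, CLDN22, CDC42 and markers were named after their values were seen. Items withheld here are not reported. Intervals are 95% confidence intervals.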

Additional observations from a re-analysis of the deposited data

How the results depend on the processing

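Of the 9 tight junction genes, 7 kept their direction under all 14 alternatives to the test on counts, and CLDN3 and CLDN12 turned only with the GC correction, to -0.092 and 0.034. CLDN2 stayed between 0.35 and 0.44. It was called with DESeq2 (0.42), with no filter on low counts (0.41) and with the replicate block (0.41, adjusted p = 0.0193). Left-out libraries gave CLDN2 0.38 to 0.44 and TJP1 -0.45 to -0.22, with calls of both only without OE_GPX3 replicate 1. Members called were 1 with DESeq2, 1 with no filter and 1 with the replicate block, and 0 to 2 with a library left out. Over all genes, 38 were called, and 68 with total counts only, 129 with no filter, 116 with DESeq2, 231 with the replicate block, 4 with the GC correction and 1 to 657 with a library left out. In FPKM 4 genes were called, 1 with no filter on low values, and 1 to 11 with a library left out. The member differences in FPKM kept their direction and stayed uncalled. In the actin and traffic list 1 gene was called with the replicate block, and 0 to 1 with a library left out. In the transcription factor list 1 was called with no filter and 1 with DESeq2, and 0 to 2 with a library left out. In the adherens and desmosome list 1 was called with the replicate block, and 0 to 2 with a library left out. CLDN15 turned with the GC correction (-0.015) and ran from -0.037 to 0.26 with a library left out. CLDN23 turned with RLE scaling (0.013) and DESeq2 (0.013) and ran from -0.13 to 0.14 with a library left out. The cause of these changes was not tested. The ratio of CLDN2 to CLDN1 was chosen after seeing the data. Counts of 39 to 68 per library limit CLDN7.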
